A study of Mus musculus with 16 samples.

Results

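In WT cells of both lineages, 1712 regions carried H3K4me3 and H3K27me3 together, of 22288 regions with H3K4me3 in at least 1 of the WT lists. They were found by merging the WT H3K4me3 peaks of endoderm and mesoderm and keeping each merged region that overlapped, by at least 1 bp, an H3K4me3 peak and an H3K27me3 peak in WT endoderm and again in WT mesoderm. These WT peaks chose the regions, so the WT levels of both marks are a description, whereas H3K27ac and all marks of the arid4b-delta lists took no part in the choice. In arid4b-delta cells 1617 of the 1712 regions (94.5%) kept both marks in both lineages, and 23 had no H3K27me3 peak in either lineage. The share depends on the lists: it was 52.2% of the same 1712 regions with the lists of both genotypes matched in length. When every list was cut to its upper 50% of peaks, ranked by fold enrichment, the set was chosen anew. It then held 137 regions, of which 50 (36.5%) had both marks in both arid4b-delta lineages. A further 1529 regions were bivalent in WT endoderm without being so in WT mesoderm, and 1179 the other way round.

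The cells were CJ9, a mouse embryonic stem cell line. The arid4b-delta groups carried the arid4b∆ genotype and the WT groups did not. Each genotype was directed to endoderm or to mesoderm for 5 days and fixed for 8 min with formaldehyde, and H3K4me3, H3K27me3 and H3K27ac were profiled by ChIP-seq, in which DNA bound to a modified histone is pulled down with an antibody and sequenced. The files hold 1 peak list per genotype, lineage and mark, 12 in all, so there are no replicates and no difference between groups was tested. What the arid4b∆ allele removes, and whether the arid4b-delta cells are 1 clone, is not stated in the labels. A peak at the Arid4b promoter was present in all 4 H3K4me3 lists and all 4 H3K27ac lists, and no list had H3K27me3 there. A promoter mark says nothing about a deletion elsewhere in the gene, so the genotype cannot be checked from these files.

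H3K4me3 is laid down at the starts of active genes, and H3K27me3 is placed by Polycomb repressive complex 2 at silenced ones. Promoters that carry both are called bivalent. In embryonic stem cells they belong largely to developmental regulators that are silent but can be activated when a lineage forms, and differentiation usually resolves them towards one mark. H3K27ac marks active promoters and enhancers and shares its residue with H3K27me3, so a single histone tail cannot carry both. Arid4b is a subunit of the Sin3-HDAC corepressor, which removes acetyl groups from histones. A peak list averages over cells and alleles, so a region listed with both marks may hold them in different cells.

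CpG-rich promoters are the typical substrate of bivalency, and the sequences below show what the regions look like at base level. They are RefSeq promoters of build GRCm38.p6 (250 bases before to 50 after a start), with every CG in capitals. Sox1, a factor of early neural cells (chr8:12395269-12395568, plus strand), has 37 CG and stayed bivalent in both arid4b-delta lineages. Myb, a regulator of blood progenitors (chr10:21160935-21161234, minus strand), has 40, and Utf1, a chromatin factor of pluripotent cells (chr7:139943606-139943905, plus strand), has 17. Myb and Utf1 are among the 23 without H3K27me3 in arid4b-delta. The promoter of Alb, the liver albumin gene (chr5:90460620-90460919, plus strand), has 3 CG and no WT H3K4me3, and was picked as a contrast.
Sox1: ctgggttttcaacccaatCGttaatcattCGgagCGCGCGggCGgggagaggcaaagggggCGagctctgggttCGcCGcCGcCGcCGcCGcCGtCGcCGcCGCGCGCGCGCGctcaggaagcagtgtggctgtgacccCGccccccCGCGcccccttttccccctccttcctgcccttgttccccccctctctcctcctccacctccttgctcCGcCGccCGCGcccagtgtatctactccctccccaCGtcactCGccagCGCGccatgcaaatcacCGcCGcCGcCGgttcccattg
Myb: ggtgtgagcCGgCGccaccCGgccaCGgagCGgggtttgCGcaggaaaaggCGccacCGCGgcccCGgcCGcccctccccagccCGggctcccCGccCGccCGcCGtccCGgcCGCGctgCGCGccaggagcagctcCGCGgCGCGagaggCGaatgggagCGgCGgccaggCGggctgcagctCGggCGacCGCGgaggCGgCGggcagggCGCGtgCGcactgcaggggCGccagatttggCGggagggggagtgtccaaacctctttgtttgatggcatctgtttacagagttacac
Utf1: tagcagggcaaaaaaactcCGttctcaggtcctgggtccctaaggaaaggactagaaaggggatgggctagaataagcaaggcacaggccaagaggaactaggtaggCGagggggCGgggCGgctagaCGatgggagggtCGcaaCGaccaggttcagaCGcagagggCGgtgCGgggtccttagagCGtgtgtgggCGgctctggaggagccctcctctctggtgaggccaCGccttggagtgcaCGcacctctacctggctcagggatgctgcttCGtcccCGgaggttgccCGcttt
Alb: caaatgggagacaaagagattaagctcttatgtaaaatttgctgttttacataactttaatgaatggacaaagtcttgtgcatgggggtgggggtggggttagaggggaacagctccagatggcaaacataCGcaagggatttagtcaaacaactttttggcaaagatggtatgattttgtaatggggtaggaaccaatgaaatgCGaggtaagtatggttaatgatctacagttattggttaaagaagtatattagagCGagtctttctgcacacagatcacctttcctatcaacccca

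Some of the regions lay beside microRNA genes rather than protein-coding promoters. Of 1005 hairpins in the RefSeq table, 15 were within 1000 bp of a region bivalent in both WT lineages, and 160 were within 1000 bp of any WT H3K4me3 region. The 15 hairpins fell at 12 regions. All 12 kept H3K4me3 and H3K27me3 in both arid4b-delta lineages, as did 94.5% of the 1712 regions. H3K27ac was present in at least 1 list at 3 of the 12, while 85.0% of the 1712 regions had it in none. The mature sequences below belong to a neural microRNA and to pairs that share a seed (bases 2 to 8, in capitals): miR-132 and miR-212 lie in a single cluster on chromosome 11, and miR-193a and miR-193b lie on chromosomes 11 and 16.
miR-9-5p: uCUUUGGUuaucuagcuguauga
miR-132-3p: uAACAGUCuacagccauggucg
miR-212-3p: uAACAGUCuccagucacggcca
miR-193a-3p: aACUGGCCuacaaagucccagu
miR-193b-3p: aACUGGCCcacaaagucccgcu
At Mir9-3 (miR-9-5p at chr7:79505279-79505301, plus strand), a microRNA of neural progenitors, H3K27me3 fold enrichment was 2.31 in arid4b-delta endoderm and 2.98 in arid4b-delta mesoderm, against 2.23 in WT endoderm and 2.17 in WT mesoderm. No list had H3K27ac there. At the region of Mir132 and Mir212, H3K27ac fold enrichment was 6.81 in arid4b-delta mesoderm, against 7.11 in WT mesoderm. In endoderm that region had no H3K27ac peak in arid4b-delta cells, against a peak of 4.25 in WT cells. Fold enrichment is the authors' own value for each peak, a ratio of signal to background. It depends on the background of its library, so it is given to describe a peak and no change is read from it.

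A subset of the regions stood apart from the rest. There were 128 in 6 dense stretches (at least 7 regions, each within 200000 bp of the next), and these stretches held repeated genes. The stretch with the most regions, chr8:123411498-123624121, held 46 of them and 48 annotated rRNA genes, 43 of them 5S genes, and began at the Tubb3 promoter. The others held 20 tRNA genes and 8 regions on chromosome 1, the interferon zeta gene Ifnz with predicted neighbours and 11 regions on chromosome 4, 18 regions around an rRNA gene on chromosome 6, and 24 and 21 regions among predicted genes on chromosome 14. Another 8 regions had an H3K4me3 fold enrichment under 2 in WT. The lowest value in the dense stretches was 2.46 in WT endoderm and 2.03 in WT mesoderm. Among the regions in neither group it was 2.52 in WT endoderm and 2.48 in WT mesoderm. Those 8 all had H3K27ac in all 4 lists, and arid4b-delta H3K4me3 was present at 5 of them in endoderm and 0 in mesoderm. How reads from near-identical copies were placed is not stated, so values in the stretches belong to groups of copies. Results are given for all 1712 regions and for the 1576 regions left without these 136, a split chosen after the values were seen.

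The regions were CpG-rich and had a longer median length than the other WT H3K4me3 regions. Their lengths ran from 178 to 4769 bp with a median of 812 bp, against a median of 641 bp for the 20576 other WT H3K4me3 regions. Joining regions within 20000 bp of each other gave 1396 loci. On the X chromosome 8 of 752 WT H3K4me3 regions were bivalent in both lineages. Median CpG content was 28 per 300 bp at 809 promoters that overlapped such a region outside the repeated stretches and low-fold regions, 25 at the 43 promoters within them, 23 at 10427 promoters with WT H3K4me3 but no such region, and 3 at 9984 promoters without it. Promoters with H3K27ac in any list and those with none both had a median of 28 CG (n = 73 and n = 736). Searching for CG reads both strands at once, and 56.8% of all 21263 promoters held at least 10 of them, against 97.8% of the 809.

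**Figure D1:**
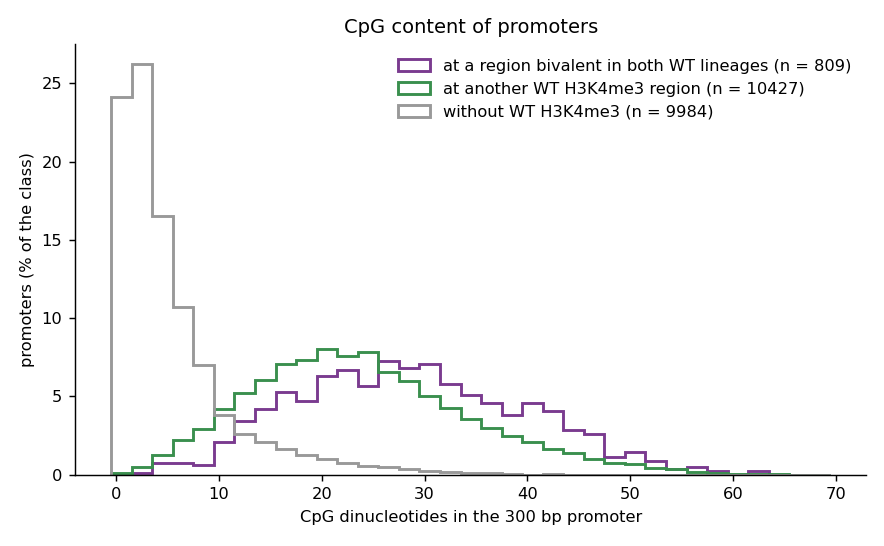
Distribution of the number of CG dinucleotides in the 300 bp RefSeq promoter (x axis) as a percentage of the promoters of each class (y axis). Purple is promoters at regions bivalent in both WT lineages, repeated stretches left out, green is promoters at other WT H3K4me3 regions, and grey is promoters without WT H3K4me3, with medians of 28, 23 and 3.

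Every arid4b-delta list was longer than its WT counterpart, with 9863 to 35884 peaks in the 6 arid4b-delta lists and 6150 to 22292 in the 6 WT lists. How deeply each library was read is unknown here, and the part of depth in the results was not tested. Of 10 endoderm marker promoters, H3K27ac was at 1 in arid4b-delta endoderm (Epcam) and at 3 in WT endoderm (Epcam, Krt8 and Krt18), and the defining factors Sox17, Foxa2, Gata4 and Gata6 had none in either. Of 10 mesoderm markers, H3K27ac was at 0 in arid4b-delta mesoderm and at 6 in WT mesoderm (T, Pdgfra, Tbx6, Foxc1, Twist1 and Dll1). Of 5 pluripotency markers, it was at 2 in arid4b-delta endoderm, 3 in arid4b-delta mesoderm, 3 in WT endoderm and 2 in WT mesoderm. The 4 fibroblast and 3 trophoblast markers had none in any list. Of 4 neuroectoderm markers only Nes had it, in arid4b-delta mesoderm, and of 4 extraembryonic endoderm markers only Sparc, in WT endoderm. A mark lost from fewer cells and a mark weaker in each cell cannot be told apart in bulk samples, and how far cell types contribute to the results was not tested.

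Developmental regulators were frequent among the genes at these regions. Of the 1712 regions, 1255 (73.3%) lay at the promoter of a protein-coding gene (1000 bp either side of its start), against 76.1% of all WT H3K4me3 regions, and they covered 1191 genes. That is 9.35% of the 12739 genes with any WT H3K4me3 region at the promoter. In 18 lists of developmental and control genes, 159 of 386 genes with WT H3K4me3 (41.2%) had a region bivalent in both lineages. Of the 159, 153 had one that kept both marks in both arid4b-delta lineages, as did 1129 of all 1191 genes. The lists were drawn up with earlier results of these data known, so the counts describe the regions and test nothing.

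Forkhead and homeobox factors had the highest shares of the 18 lists. In the list of LIM, paired and other homeobox factors, 42 of 69 genes with WT H3K4me3 had such a region, among them Lhx1, Emx2, Pax3 and Pou3f1. All 42 were bivalent in both arid4b-delta lineages, as were 1129 of all 1191 genes with such a region. Of forkhead, Sox, GATA and T-box factors it was 29 of 45, including Foxa2, Foxf1, Sox1, Gata6 and Tbx3. The lists overlap at single genes: Foxa2, a pioneer factor of endoderm, counts among forkhead, streak and endoderm genes. Foxa2 (chr2:148046375-148046868) had H3K27me3 fold enrichments of 3.01 in arid4b-delta endoderm and 3.25 in arid4b-delta mesoderm, against 3.04 in WT endoderm and 2.60 in WT mesoderm, and no H3K27ac in any list.

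Germ layer genes were represented in part. Of endoderm genes, 9 of 17 had a region bivalent in both WT lineages (Foxa1, Foxa2, Gata6, Hhex, Cxcr4, Pdx1, Onecut1, Sox9 and Cdx2). Of mesoderm genes it was 10 of 24, including Kdr, the VEGF receptor of blood and vessel precursors, Tal1, Hand2, Foxc1 and Pax3. Of primitive streak genes it was 6 of 17 (Fgf8, Gsc, Lhx1, Foxa2, Sp5 and Cdx2), and of neuroectoderm genes 14 of 24. Every one of these genes had a region with both marks in both arid4b-delta lineages, as did 1129 of all 1191 genes in the set. Kdr (chr5:75977891-75978988) had H3K27me3 fold enrichments of 2.24 in arid4b-delta endoderm and 4.13 in arid4b-delta mesoderm, against 3.26 in WT endoderm and 2.25 in WT mesoderm.

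Other streak and endoderm genes were outside the set. Eomes, the T-box factor of mesendoderm, had both promoter marks in all lists, but no single merged region carried them in both WT lineages. T and Mixl1 had H3K27me3 in WT endoderm and not in WT mesoderm. Sox17 had no H3K4me3 in either WT list, and Gata4 had neither mark in WT. Nodal had H3K27me3 in WT mesoderm alone. Nothing about those genes is counted below.

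Signalling genes were represented by 27 of 67 ligands, receptors and inhibitors, among them Fgf4, Fgf8, Fgf15, Nog, Jag1, Ptch1 and the Wnt ligands Wnt4, Wnt11 and Wnt7a. Axon guidance and adhesion genes gave 15 of 41, bHLH and zinc-finger factors 20 of 39, and Hox clusters 7 of 25 (among them Hoxa4, Hoxa5, Hoxa7, Hoxc6, Hoxd1 and Hoxd13). Hox domains are long, and only stretches with H3K4me3 in WT could enter. The repressors themselves were represented by 6 of 30 Polycomb genes (among them Bmi1, Cbx8, Epop, Pcgf5 and Phf19), and the cell cycle inhibitors by Cdkn1c and Cdkn2a among 7. Of pluripotency genes it was 6 of 18 (Esrrb, Klf2, Klf4, Sox2, Tbx3 and Utf1). Trophoblast genes gave 3 of 7 and extraembryonic endoderm genes 1 of 8. None of 18 housekeeping genes was in the set, and the single germline gene and the 4 fibroblast genes with WT H3K4me3 were outside it as well.

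**Figure D2:**
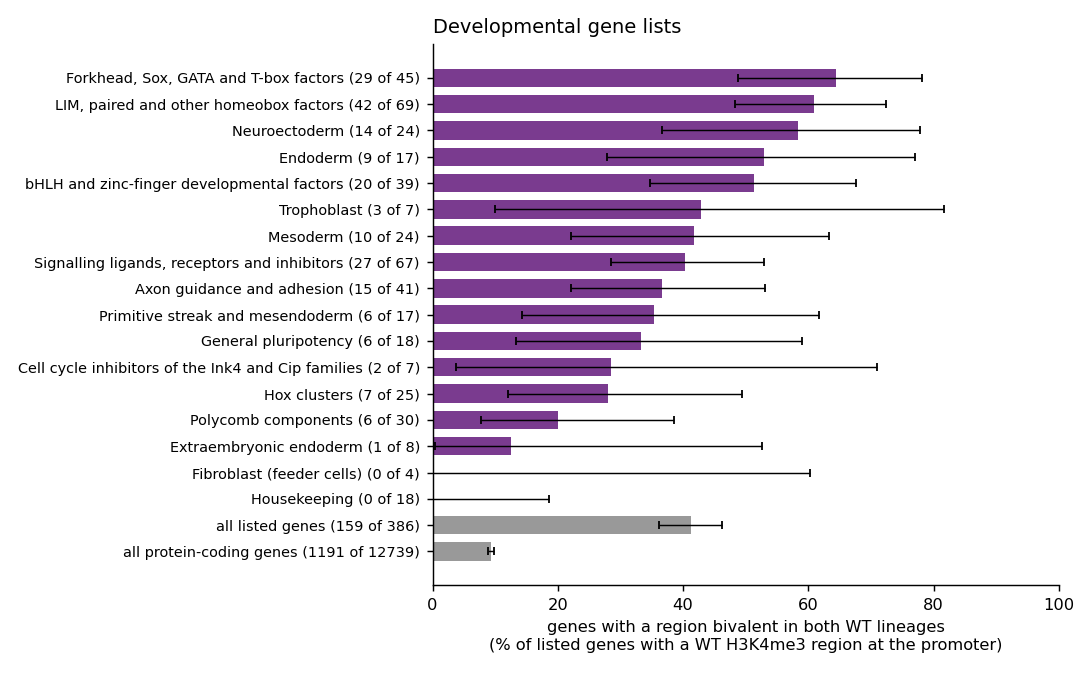
Share of listed genes with WT H3K4me3 at the promoter that had a region bivalent in both WT lineages (x axis, percent), by gene list, with exact 95% Clopper-Pearson intervals as whiskers (counting error only) and counts in brackets. Homeobox (42 of 69) and forkhead, Sox, GATA and T-box factors (29 of 45) lie far right of all protein-coding genes (1191 of 12739, grey), and housekeeping genes are at 0 of 18.

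H3K4me3 was present at almost every region in arid4b-delta cells. An arid4b-delta peak was present at 1705 of 1712 regions in endoderm (99.6%, exact 95% interval 99.2 to 99.8) and at 1703 in mesoderm (99.5%, 99 to 99.8). It was missing at 7 regions in endoderm and 9 in mesoderm, and across all regions with H3K4me3 in WT of the lineage it was missing at 1.85% in endoderm and 2.23% in mesoderm. All 9 mesoderm regions without it belonged to the repeated stretches or the 8 low-fold regions, so all 1576 other regions had it. In endoderm 3 of the 1576 lacked it: one at Lonrf3 on the X chromosome, one at the predicted gene Gm8909 and one downstream of the Gata6 start.

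Arid4b-delta H3K4me3 peaks at the regions were longer than WT peaks. The longest peak over a region had a median of 1023 bp in arid4b-delta endoderm and 434.5 bp in WT endoderm, and of 1211 bp in arid4b-delta mesoderm and 755 bp in WT mesoderm. Single arid4b-delta peaks spanned several regions in 67 cases in endoderm and 76 in mesoderm, and by construction no WT peak did. The longer peaks were not particular to bivalent regions: over all WT H3K4me3 regions the medians were 1046 bp in arid4b-delta and 558 bp in WT endoderm, and 1204 bp in arid4b-delta and 662 bp in WT mesoderm.

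H3K27me3 was present nearly as often. It was present at 1653 regions in arid4b-delta endoderm (96.6%, 95.6 to 97.4) and at 1661 in arid4b-delta mesoderm (97.0%, 96.1 to 97.8). It was missing at 59 regions in endoderm, where 12.5% of all regions with WT endoderm H3K27me3 lacked it in arid4b-delta, and at 51 in mesoderm, where 8.12% did. Regions bivalent in WT endoderm without being so in WT mesoderm had it less often, at 69.7% in arid4b-delta endoderm (67.3 to 72.0). Those bivalent in WT mesoderm without being so in WT endoderm had it at 86.5% in arid4b-delta mesoderm (84.4 to 88.4). No test was made of these differences. Both marks in both arid4b-delta lineages were found at 1617 of the 1712 regions and at 17.9% of all WT H3K4me3 regions. These shares are not like for like, because the 1712 were chosen for H3K27me3 in both WT lists, which most WT H3K4me3 regions lacked. In regions bivalent in WT cells of a single lineage, the share with both marks in both arid4b-delta lineages lay between these values.

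**Figure D3:**
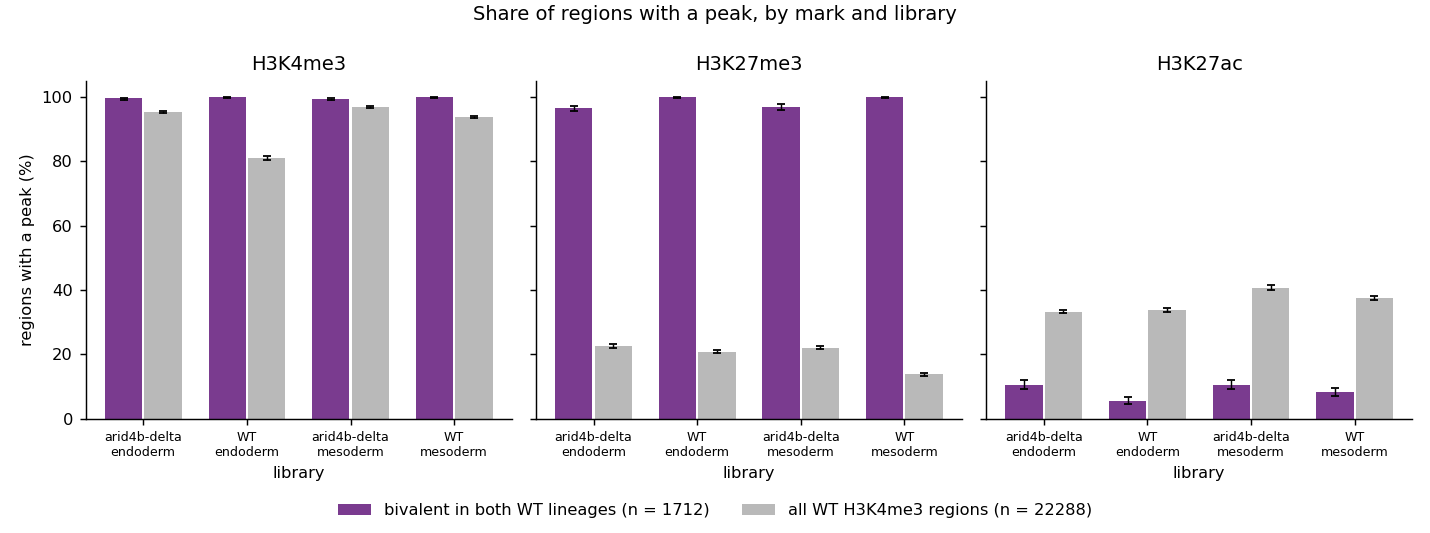
Percentage of regions with a peak (y axis) for each mark and library (x axis), for the 1712 regions bivalent in both WT lineages (purple) and all 22288 WT H3K4me3 regions (grey), with exact 95% intervals as whiskers. WT H3K4me3 and H3K27me3 are at 100% by the choice of regions, the arid4b-delta values of both marks lie between 96.6% and 99.6%, and H3K27ac lies between 5.55% and 10.5%.

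The WT H3K27me3 peaks behind the set had low significance in the authors' peak calls. The strongest peak at a region had a median −log10 q of 2.59 in arid4b-delta endoderm and 2.85 in arid4b-delta mesoderm, against 2.11 in WT endoderm and 1.19 in WT mesoderm. In 22 regions the smaller WT overlap with H3K27me3 was under 50 bp and in 207 it was under 200 bp, the smallest being 2 bp at the shared promoter of Plec and Parp10. At the other edge, 1299 regions lacked only the WT mesoderm H3K27me3 peak, 279 of them by no more than 1000 bp. Epas1 missed the set by 2 bp and T by 24 bp. Another 209 regions lacked only the WT endoderm peak, 54 of them by no more than 1000 bp. With arid4b-delta lists cut to the length of the WT lists by fold enrichment, H3K27me3 remained at 69.7% of the regions in endoderm and 69.5% in mesoderm, and both marks in both lineages at 52.2%.

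Regions without arid4b-delta H3K27me3 often had a peak close by. In endoderm 32 of the 59 had an arid4b-delta H3K27me3 peak within 1000 bp and 20 had none within 10000 bp. In mesoderm 24 of the 51 had one within 1000 bp and 22 had none within 10000 bp. Their WT H3K27me3 had covered a median of 487 bp of the region in endoderm, against 697 bp at regions that kept the mark, and 342 bp in mesoderm, against 534 bp. Their WT peaks had been shorter too, with medians of 909 bp against 3126 bp in endoderm and 717 bp against 1486 bp in mesoderm. The mark was missing in both lineages at 23 regions, in endoderm alone at 36 and in mesoderm alone at 28. Of all regions with H3K27me3 in both WT lists, 1.12% were without it in both arid4b-delta lists.

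The 23 regions without H3K27me3 in either arid4b-delta list covered 20 genes with diverse roles, and 12 of the regions had no arid4b-delta H3K27me3 within 10000 bp in either lineage. H3K27ac was present in arid4b-delta cells of at least 1 lineage at 11 of the 23 and in WT cells at 4. Over all WT H3K4me3 regions it was at 43.9% in arid4b-delta and 42.8% in WT, and over the 1712 bivalent regions at 12.97% in arid4b-delta and 9.11% in WT. By lineage it was 9 in arid4b-delta and 3 in WT endoderm, and 10 in arid4b-delta and 2 in WT mesoderm. None of the 23 lay in the repeated stretches or low-fold regions. All 23 kept H3K4me3 in all lists.

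Myb, Dnmt3a, Abcg1 and Slc35d3 had H3K27ac in both arid4b-delta lists and in neither WT list, with no arid4b-delta H3K27me3 within 10000 bp. At the Myb region (chr10:21158653-21161675) H3K27me3 had no arid4b-delta peak within 188907 bp in mesoderm or 282953 bp in endoderm, against WT peaks with fold enrichments of 2.09 in endoderm and 1.96 in mesoderm. H3K27ac had fold enrichments of 4.44 in arid4b-delta endoderm and 9.56 in arid4b-delta mesoderm, with no peak in either WT list. Myb entered the set narrowly: WT H3K27me3 covered 52 of the 3023 bp of the region in endoderm and 1026 in mesoderm, with 0 bp common to both. Dnmt3a, a DNA methyltransferase that acts de novo (chr12:3806528-3808587), had the same pattern, with H3K27ac at 5.10 in arid4b-delta endoderm and 4.62 in arid4b-delta mesoderm and no peak in WT. Its WT H3K27me3 peaks were among the weakest, at 1.33 in endoderm and 1.04 in mesoderm. Dnmt3a was chosen after its values were seen.

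Abcg1, a cholesterol transporter, Slc35d3, a member of a nucleotide sugar transporter family, and Cerk, the ceramide kinase, had H3K27ac in both arid4b-delta lists and in neither WT list. Abcg1 (chr17:31057734-31058429) had H3K27ac fold enrichments of 5.71 in arid4b-delta endoderm and 7.28 in arid4b-delta mesoderm, and its nearest arid4b-delta H3K27me3 peak was 155434 bp away in endoderm. Cerk (chr15:86184899-86186214) had 6.34 in arid4b-delta endoderm and 8.30 in arid4b-delta mesoderm, but an arid4b-delta endoderm H3K27me3 peak lay 254 bp away. At Cerk the locus therefore still had H3K27me3 beside the region.

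Utf1 was already acetylated in WT endoderm. Its region (chr7:139943758-139945483) had H3K27ac fold enrichments of 11.8 in arid4b-delta endoderm and 11.8 in arid4b-delta mesoderm, against 5.51 in WT endoderm and no peak in WT mesoderm. The nearest arid4b-delta H3K27me3 peak was 47544 bp away in endoderm and 47633 bp in mesoderm. Ugt8a, which makes galactosylceramide of myelin, had the same pattern of H3K27ac peaks as Utf1, and Cux2, a homeobox factor of cortical neurons, had a peak in all 4 lists. Syt2, a calcium sensor of synaptic vesicles, and Tdrp had H3K27ac in arid4b-delta mesoderm alone.

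The remaining genes had no H3K27ac in any list. They were Itgb4, an integrin of hemidesmosomes, Igfbp5, a binding protein of insulin-like growth factors, Elavl3, a neuronal RNA-binding protein with a pair of regions, Abcc4, an efflux transporter, Grtp1, Hectd2, Mboat1, Pcnx2 and Rgs11. Itgb4 had arid4b-delta H3K27me3 peaks 112 bp away in endoderm and 502 bp in mesoderm. Ypel2 differed between lineages, with H3K27ac peaks in arid4b-delta endoderm and WT mesoderm and no others. Arid4b-delta H3K27me3 peaks lay 408 bp from the Ypel2 region in endoderm and 27 bp in mesoderm. WT mesoderm H3K27me3 had covered 36 of its 1090 bp.

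**Figure D4:**
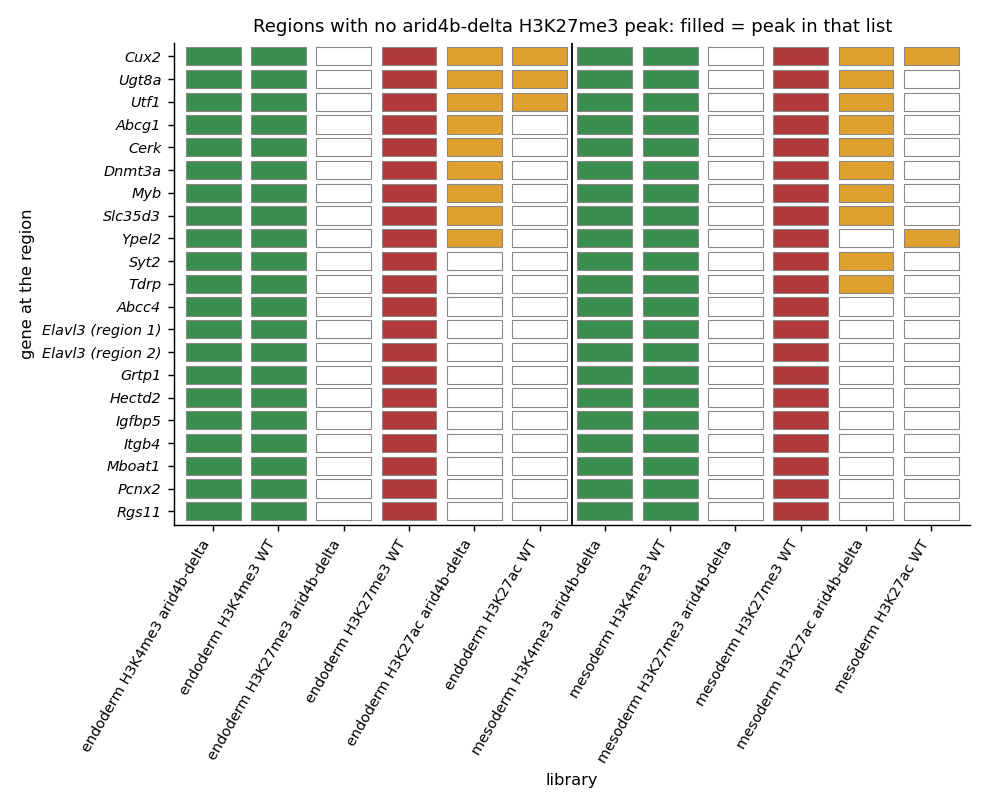
Marks at the regions with a protein-coding promoter that had no H3K27me3 peak in either arid4b-delta list, 1 row per region and 1 column per library, with arid4b-delta left of WT for each mark. A filled box means a peak over the region, green for H3K4me3, red for H3K27me3 and orange for H3K27ac: the H3K27ac columns are filled at 9 regions in arid4b-delta and 3 in WT endoderm, and at 10 in arid4b-delta and 2 in WT mesoderm.

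H3K27ac was also counted within each lineage at regions with and without arid4b-delta H3K27me3. In mesoderm, of the 51 regions without arid4b-delta H3K27me3, 19 had H3K27ac in arid4b-delta (37.3%, 24.1 to 51.9) and 5 in WT (9.80%, 3.26 to 21.4). Of the 1661 that kept it, 161 had H3K27ac in arid4b-delta and 135 in WT. With the 136 regions left out, those that kept H3K27me3 had 68 acetylated in arid4b-delta and 68 in WT. In endoderm, of the 59 without arid4b-delta H3K27me3, 17 had H3K27ac in arid4b-delta (28.8%, 17.8 to 42.1) and 11 in WT (18.6%, 9.69 to 30.9). Of the 1653 that kept it, 163 had H3K27ac in arid4b-delta (9.86%) and 84 in WT (5.08%), and with the 136 left out 39 had it in arid4b-delta and 40 in WT. Over all regions with H3K27me3 in WT of the lineage and none in arid4b-delta, H3K27ac was at 54.0% in arid4b-delta and 38.8% in WT mesoderm, and at 29.3% in arid4b-delta and 25.6% in WT endoderm. The difference between regions with and without H3K27me3 was not tested.

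H3K27ac was scarce at the set as a whole. It was present at 180 regions in arid4b-delta endoderm (10.5%, 9.10 to 12.1), 180 in arid4b-delta mesoderm (10.5%), 95 in WT endoderm (5.55%, 4.51 to 6.74) and 140 in WT mesoderm (8.18%, 6.92 to 9.58). Over all WT H3K4me3 regions it was present at 33.3% in arid4b-delta endoderm, 40.8% in arid4b-delta mesoderm, 33.6% in WT endoderm and 37.5% in WT mesoderm. At 1456 regions (85.0%) no list had H3K27ac, against 50.1% of all regions. Outside the repeated stretches and low-fold regions it was present at 51 of 1576 in arid4b-delta endoderm, 86 in arid4b-delta mesoderm, 47 in WT endoderm and 73 in WT mesoderm.

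In endoderm most regions acetylated in 1 genotype only lay in the repeated stretches. In endoderm 103 regions had H3K27ac in arid4b-delta only, a class that held 6.34% of all regions, and 18 in WT only, a class that held 6.66%. Of the 103, 81 lay in the repeated stretches, and the regions elsewhere gave 22 that were acetylated in arid4b-delta only and 18 that were so in WT only. In mesoderm 73 had it in arid4b-delta only, against 8.93% of all regions, and 33 in WT only, against 5.7%. Outside the stretches and low-fold regions 45 of these were of the arid4b-delta class and 32 of the WT class. With lists cut to equal length each genotype had 32 such regions in endoderm, while in mesoderm there were 24 for arid4b-delta and 57 for WT, which turns the direction.

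**Figure D5:**
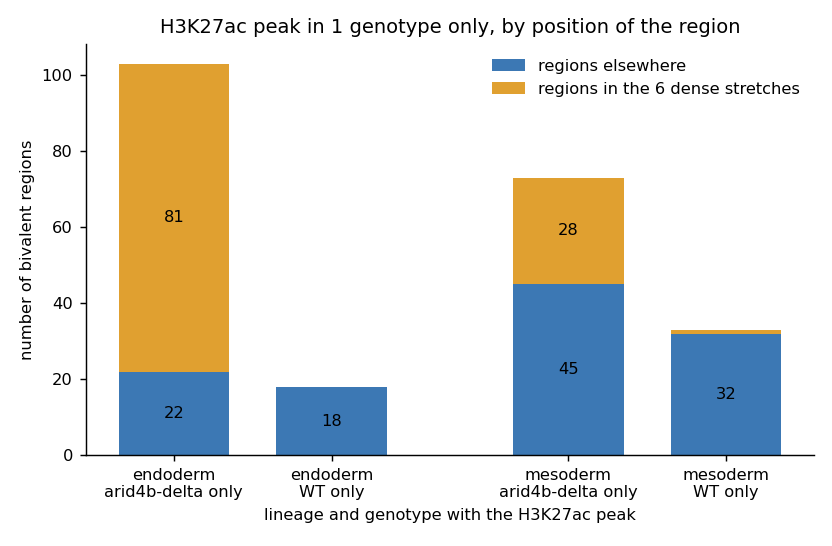
Number of bivalent regions (y axis) with an H3K27ac peak in 1 genotype only, by lineage and genotype (x axis), with regions in the 6 dense stretches of repeated genes in orange and regions elsewhere in blue. In endoderm 81 of the 103 arid4b-delta-only regions lie in the stretches, and outside them there are 22 arid4b-delta-only and 18 WT-only regions.

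The 5S rRNA stretch was acetylated in arid4b-delta endoderm above all. Of its 46 regions, 45 had H3K27ac in arid4b-delta endoderm and 11 in arid4b-delta mesoderm, against 0 in WT endoderm and 2 in WT mesoderm. In the stretch around Ifnz all 11 regions had it in arid4b-delta endoderm, arid4b-delta mesoderm and WT mesoderm, and none in WT endoderm. In the stretch on chromosome 6 it was 18 in arid4b-delta endoderm, 17 in arid4b-delta mesoderm, 0 in WT endoderm and 3 in WT mesoderm. The tRNA stretch on chromosome 1 had 3 of 8 in each list. Regions of a stretch often lay under a long H3K27me3 peak, so they are not independent observations. In endoderm the median length of the longest H3K27me3 peak over them was 36292 bp in arid4b-delta and 32581 bp in WT. In mesoderm it was 36127 bp in arid4b-delta and only 4656 bp in WT. The 10 regions with the longest H3K27me3 coverage common to both WT lineages all lay in the 5S stretch.

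Outside the stretches, 45 regions had H3K27ac in arid4b-delta mesoderm and not in WT mesoderm. Of the 14 neuroectoderm genes, 0 had it in arid4b-delta mesoderm and 1, Irx3, in WT mesoderm. Pou3f1, a POU factor of epiblast and neural progenitors (chr4:124657591-124660319), had H3K27ac fold enrichments of 5.25 in arid4b-delta endoderm and 11.2 in arid4b-delta mesoderm and no WT peak, and kept H3K27me3 in both arid4b-delta lists. Fgf15 had an arid4b-delta mesoderm peak of 10.01 and a WT endoderm peak of 5.73. The arid4b-delta mesoderm peak covered only 29 of the 1082 bp of the Fgf15 region, and the WT endoderm peak 186. Sox3, a neural and epiblast factor on the X chromosome, had 6.93 in arid4b-delta mesoderm and no other H3K27ac peak, and no H3K27me3 in arid4b-delta endoderm. Fgf4 and Jag2 also had H3K27ac in arid4b-delta mesoderm only, with fold enrichments of 5.73 at Fgf4 and 4.085 at Jag2. Sox3, Fgf4 and Jag2 were picked from the lists after their values were seen. Ranked by fold enrichment, the other arid4b-delta-only genes of mesoderm were Pdgfc, a growth factor (9.82), Ugt8a (9.82), Myb (9.56), App, the amyloid precursor (8.68), Galnt3, a mucin-type glycosyltransferase (8.38), Cerk (8.30) and Grik3, a kainate receptor (8.07).

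Another set had H3K27ac in WT mesoderm and not in arid4b-delta mesoderm. Cdh2, the N-cadherin of mesenchymal and neural cells, had a WT mesoderm H3K27ac peak of 10.1 and Foxc1, a paraxial mesoderm factor (chr13:31806585-31809329), one of 9.76, and neither had a peak in arid4b-delta cells or in WT endoderm. Fzd1, a Wnt receptor (9.10), Smad6, an inhibitor of BMP signalling (8.79), Greb1l (7.63), Sgms1, a sphingomyelin synthase (7.36), Zfp385b (7.34), Cdx2, a posterior homeobox factor (7.11), Ypel2 (7.02) and Mn1 (7.0) followed. Irx3, Tbx3 and Unc5c, and the Polycomb genes Cbx8 and Epop, also had H3K27ac in WT mesoderm and in no other list, and these were picked after their values were seen. In all, 11 of the 159 listed genes had H3K27ac in arid4b-delta mesoderm and 16 in WT mesoderm. From the mesoderm list, there were 0 in arid4b-delta mesoderm and 1, Foxc1, in WT mesoderm. Over all 1191 genes in the set the order was the opposite, with more genes acetylated in arid4b-delta mesoderm than in WT mesoderm. By region, H3K27ac was at 10.5% of the 1712 in arid4b-delta mesoderm and at 8.18% in WT mesoderm. Whether listed genes differ from the rest was not tested.

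In endoderm fewer regions differed outside the stretches. The arid4b-delta-only genes were led by Fjx1 (10.7), Rhbdf1, an inactive rhomboid (8.78), Slc35d3 (6.95), App (6.56), Wdr20 (6.56) and Cerk (6.34), followed by Hes7, a bHLH repressor of the segmentation clock (5.95), Abcg1 (5.71), Ifnz in its stretch (5.63) and Ypel2 (5.51). The WT-only genes were led by Cobll1 (9.30), Cldn3, a tight-junction claudin (8.31), Dusp8 (7.61), B3gnt2 (7.44), the Wnt receptor Fzd8 (7.27), Pdgfc (7.27), the zinc-finger factor Egr2 (7.25), the Hedgehog receptor Ptch1 (6.92), Egr1 (6.82) and Zswim6 (6.58). Foxd3 and Gsc had H3K27ac in WT endoderm and in no other list, at 6.25 and 4.56. Cobll1 and Ptch1 were without H3K27me3 in arid4b-delta endoderm, although their acetylation there was in WT only.

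Some listed regulators had H3K27ac in both genotypes, of which Jag1 and Sox2 were picked after their values were seen. Jag1, a Notch ligand (chr2:137114390-137117559), had H3K27ac fold enrichments of 8.39 in arid4b-delta endoderm and 11.2 in arid4b-delta mesoderm, against 10.4 in WT endoderm and 8.02 in WT mesoderm, and kept both methyl marks in every list. Sox2, a factor of pluripotent and neural cells (chr3:34649948-34652097), had 8.05 in arid4b-delta endoderm and 9.60 in arid4b-delta mesoderm, against 6.09 in WT endoderm and 7.53 in WT mesoderm. Sox2 had no H3K27me3 in arid4b-delta mesoderm, where the nearest peak lay 5992 bp away. In all, 68 of the 1712 regions (3.97%) and 21 of the 1576 (1.33%) had H3K27ac in all 4 lists, against 23.8% of all WT H3K4me3 regions.

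At most listed regulators no list had H3K27ac, and both methyl marks were present in every list. Hoxd13 (chr2:74668183-74668807) had H3K27me3 fold enrichments of 2.81 in arid4b-delta endoderm and 2.74 in arid4b-delta mesoderm, against 2.80 in WT endoderm and 2.63 in WT mesoderm. Nkx6-1, Olig1, Neurog2, Tcf15, Wt1, Epha5, Epha7, Ntn1, Tead4, Ascl2, Pcgf5, Phf19, Klf4 and Esrrb had both methyl marks in all lists and no H3K27ac. Cdkn2a, the Ink4a and Arf locus that Polycomb silences in proliferating cells (chr4:89294014-89295636), had H3K27me3 of 2.66 in arid4b-delta endoderm and 2.09 in arid4b-delta mesoderm, against 2.21 in WT endoderm and 2.02 in WT mesoderm. Fgf8, an FGF ligand of the primitive streak (chr19:45740878-45742902), had H3K27me3 of 1.81 in arid4b-delta endoderm and 2.81 in arid4b-delta mesoderm, against 3.70 in WT endoderm and 2.44 in WT mesoderm.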

How the data were processed

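Peak lists of 12 ChIP libraries were analysed, 1 per genotype, lineage and mark; the 4 input samples were not used here. Bowtie2, Picard and MACS2 with build mm10 are named per the submitters' processing notes, without versions or settings. Each deposited peak carries the authors' score, fold enrichment (a ratio), −log10 p-value and −log10 q-value, and narrow peaks a summit offset. Read depth is unknown, and no value was rescaled.

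Regions were merged WT H3K4me3 peaks on chromosomes 1 to 19, X and Y, and a mark was present where a peak overlapped by at least 1 bp. Gene starts came from RefSeq (GRCm38.p6): 17492 of 21887 genes by the promoter table, 2646 by a gene end, and 1749 with both ends kept. The gene end used was the one with more H3K4me3 coverage, summed over the lists of both genotypes and lineages. Both ends were kept where they tied. The starts of those 2646 genes were therefore chosen from peaks that were also counted. Exons and introns were not used here. Intervals are exact Clopper-Pearson at 95% and cover counting error only; no test between groups was possible. Named genes were up to 4 per list by the lower WT H3K27me3 fold enrichment, up to 10 per class of change, and 16 genes given whatever their values. The members and lists were chosen with earlier results of these data known. Python 3.11.15, pandas 2.3.3, numpy 2.4.6, scipy 1.17.1 and matplotlib 3.10.9 were used, and the overlap code was tested on simulated data. Alternatives varied overlap, merging, peak strength, list length, promoter window, chromosomes and, after the data were seen, repeated stretches, distance and gene table. Some genes are not reported here.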

Additional observations from a re-analysis of the deposited data

Results flagged for a closer look

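At 6 bivalent regions H3K27ac was present in 1 genotype in endoderm and in the other genotype in mesoderm. The same arrangement was found at 401 of all 22288 WT H3K4me3 regions (1.80%). Each value is the authors' fold enrichment of a single peak, and the difference between lineages was not tested.

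Ypel2 had H3K27ac of 5.51 in arid4b-delta endoderm and of 7.02 in WT mesoderm, with no H3K27ac peak in the other lists. No arid4b-delta H3K27me3 peak overlapped its region, but such peaks lay 408 bp away in endoderm and 27 bp away in mesoderm. A region of the 5S rRNA stretch without a promoter (chr8:123550756-123551194) had 7.57 in arid4b-delta endoderm and 4.53 in WT mesoderm.

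The other 4 had the opposite arrangement. Pdgfc, a growth factor, had 9.82 in arid4b-delta mesoderm and 7.27 in WT endoderm. Fgf15, an FGF ligand, had 10.01 in arid4b-delta mesoderm and 5.73 in WT endoderm, but the arid4b-delta mesoderm peak covered only 29 of the 1082 bp of its region. B3gnt2, a glycosyltransferase, had 6.93 in arid4b-delta mesoderm and 7.44 in WT endoderm. Egr1, an immediate early zinc-finger factor, had 6.37 in arid4b-delta mesoderm and 6.82 in WT endoderm.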

How the results depend on the processing

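With arid4b-delta and WT lists matched in length, H3K4me3 in arid4b-delta was at 97.6% of the regions in endoderm and 98.4% in mesoderm, H3K27me3 at 69.7% and 69.5%, and both marks in both lineages at 52.2%. H3K27ac was then at 5.55% in arid4b-delta endoderm and 6.25% in arid4b-delta mesoderm. Regions acetylated in 1 genotype numbered 32 for arid4b-delta and 32 for WT in endoderm (50% arid4b-delta, against 85.1% with the full lists). In mesoderm they numbered 24 for arid4b-delta and 57 for WT (29.6%, against 68.9%), a reversed direction in mesoderm alone. With H3K27me3 peaks of −log10 q at least 2, 238 regions remained, with H3K4me3 at 100% in arid4b-delta endoderm, H3K27me3 at 74.8% in endoderm and 83.6% in mesoderm, and both marks at 66.0%. Their H3K27ac was at 12.6% in arid4b-delta endoderm, 13.9% in arid4b-delta mesoderm, 2.94% in WT endoderm and 6.72% in WT mesoderm, with 26 arid4b-delta-only and 3 WT-only regions for endoderm and 21 and 4 for mesoderm (84%). With the upper 50% of each list, 137 regions remained, with H3K4me3 at 89.1% in endoderm and 96.4% in mesoderm, H3K27me3 at 59.1% in both and both marks at 36.5%. Their H3K27ac was at 8.03% in arid4b-delta endoderm, 8.76% in arid4b-delta mesoderm, 3.65% in WT endoderm and 5.11% in WT mesoderm, with 7 and 1 for endoderm and 7 and 2 for mesoderm (77.8%). Requiring 200 bp of overlap left 1339 regions, with 10 WT only in endoderm, and 45 arid4b-delta only and 19 WT only in mesoderm. The arid4b-delta share of regions acetylated in 1 genotype was then 89.1% in endoderm and 70.3% in mesoderm, against 85.1% and 68.9%. Merging within 1000 bp left 1617 regions, with H3K27ac at 12.4% in arid4b-delta mesoderm, 6.86% in WT endoderm and 10.7% in WT mesoderm. Without the repeated stretches and low-fold regions, H3K4me3 was at 100% in arid4b-delta mesoderm, and H3K27ac at 3.24% in arid4b-delta endoderm, 5.46% in arid4b-delta mesoderm, 2.98% in WT endoderm and 4.63% in WT mesoderm, with 22 arid4b-delta only in endoderm (55.0%) and 45 in mesoderm (58.4%). The cause of these shifts was not tested. Absence defined as no peak within 1000 bp gave 101 arid4b-delta-only and 49 WT-only regions in mesoderm, against 73 and 33, and the promoter table alone gave 953 regions at promoters, 903 genes and 106 listed genes, against 1255, 1191 and 159. Other promoter windows, chromosomes 1 to 19 and mutual overlap of the marks changed no count by over 1.5 times. No paired analysis was possible because each group has a single library and no test was made.

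With 1 library a group, no spread between replicates is known. Every arid4b-delta list is longer than its WT counterpart, so presence in arid4b-delta and depth cannot be told apart. The number of reads behind a peak is unknown, and absence of a peak is not absence of a mark.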

Other observations

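Potassium channel genes were frequent among the bivalent promoters. Of 56 genes with a symbol beginning Kcn and WT H3K4me3 at the promoter, 27 (48.2%) had a region bivalent in both WT lineages, against 1191 of 12739 protein-coding genes (9.35%). All 27 kept both marks in both arid4b-delta lineages, as did 1129 of the 1191, and 0 had H3K27ac in any list. The group was chosen after its values were seen, so its count is a description.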
